A study of Saccharomyces cerevisiae with 8 samples.

Results

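The genes described here encode protein components of the spliceosome of the budding yeast Saccharomyces cerevisiae. They are 46 genes taken by systematic identifier from a list of pre-mRNA splicing factors that holds PRP, SNU, MUD, SYF, HSH and CUS genes and their partners, out of 11993 features and 5976 protein-coding genes in the deposited table. All 46 were found in the table, and all 46 passed the filter on low values. RNA was sequenced from strain BY4741, a haploid of genotype MATa his3Δ1 leu2Δ0 met15Δ0 ura3Δ0, called wild type (WT), and from a upf1 mutant that carries the same alleles and a kanMX4 cassette at UPF1. The helicase Upf1 acts in nonsense-mediated decay, which degrades mRNAs whose translation ends early. Cultures in rich medium (YPD) at 30 °C and an optical density of 0.5 received either cycloheximide (CHX, 100 µg/ml), which blocks translation elongation, or its solvent DMSO for 15 min. Each of the 4 groups, WT with DMSO, WT with CHX, upf1 with DMSO and upf1 with CHX, had 2 libraries that the series design calls biological replicates. The sources used here do not say whether the mutant cultures came from 1 clone.

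The spliceosome removes introns in a pair of chemical steps. U1 snRNP (a small nuclear RNA with its proteins) binds the 5′ splice site, the branch site is first bound by Msl5 with Mud2 and then by U2 snRNP, and the U4/U6.U5 tri-snRNP joins. RNA helicases then remodel the particle, the Prp19 complex stabilises its active form, and second step factors act at the 3′ splice site. Few yeast genes have introns, and most of these have 1.

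MUD1 (YBR119W), the gene of an RNA-binding protein of U1 snRNP, was the only one of the 46 with an annotated coding intron, so it is both a spliceosome gene and a target of splicing. Its intron has 89 bases. Of 46 other splicing genes that were set beside the list (Sm and LSm proteins, further snRNP and Prp19 complex proteins, cap-binding proteins and cofactors), SMD2, LSM2, LSM7, YSF3 and STO1 had one. The introns of MUD1, SMD2 (an Sm core protein) and LSM7 (a protein of the ring on U6 snRNA) are shown as examples. They carry the letters that U1 snRNP, Msl5 and U2 snRNP recognise, as do those of LSM2, YSF3 and STO1. Capitals mark the first 6 bases at the 5′ splice site, the branch site heptamer and the last 3 bases at the 3′ splice site, in coordinates of build R64 on the + strand.
MUD1, chrII:479346-479434: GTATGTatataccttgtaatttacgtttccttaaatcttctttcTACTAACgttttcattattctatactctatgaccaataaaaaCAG
SMD2, chrXII:694383-694472: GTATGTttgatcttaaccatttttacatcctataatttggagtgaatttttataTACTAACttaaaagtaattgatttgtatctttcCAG
LSM7, chrXIV:350958-351053: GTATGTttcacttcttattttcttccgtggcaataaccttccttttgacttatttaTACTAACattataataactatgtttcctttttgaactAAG
All 3 begin with GTATGT and hold TACTAAC, and LSM7 ends in AAG where MUD1 and SMD2 end in CAG. Among 280 annotated coding introns of at least 50 bases, 204 (72.9%) begin with GTATGT and 232 (82.9%) hold TACTAAC on the strand of the gene. In MUD1 the branch A lies 39 bases from the end of the intron, against 30 bases in SMD2 and 34 bases in LSM7. The distance is 36 bases in LSM2, 63 bases in YSF3 and 42 bases in STO1.

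The libraries held 9.09 M to 25.66 M reads (M, mega), of which 83.0% to 89.5% fell in protein-coding genes. NAM7, the gene of Upf1, had densities of 0.533 and 0.588 in the DMSO libraries of WT and 1.48 and 1.74 in its CHX libraries. The mutant libraries had 0.0216 and 0.0239 with DMSO and 0.0373 and 0.0350 with CHX, so all 8 libraries matched their labelled genotype. STE2, the receptor gene of a cells, was at 3.25 to 14.5, and STE3, that of alpha cells, at 0.0105 to 0.218. The deposited value is a read density, reads per length of the feature, on a scale on which the small nucleolar RNAs (snoRNAs) are level between libraries. On this deposited scale the median protein-coding gene moved by 1.55 (log2) with CHX in WT, 1.14 with CHX in upf1, 0.57 in upf1 against WT in DMSO and 0.32 in upf1 against WT in CHX. Each comparison was therefore also made after rescaling the libraries to the median protein-coding gene, and those values are called mRNA-rescaled. A further scale took the reads of a gene as a share of all reads in protein-coding genes, given as RPM. In bulk RNA, fewer cells with an RNA and less of that RNA per cell cannot be told apart. Every adjusted p below is from limma with Benjamini-Hochberg adjustment over all 11700 features tested, and genes are said to rise or fall where it was under 0.05.

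In untreated WT the spliceosome protein genes were mostly low. The deposited density of the median member was 0.113 against 0.210 for the median protein-coding gene, and 39 of the 46 lay below that gene. SNU13 (YEL026W) was the highest, with 2.88 and 3.28 in the WT libraries with DMSO (3.08 ± 0.283, SD, n = 2). Its product binds U4 snRNA and is also a core protein of box C/D snoRNPs. PRP43 (YGL120C) came next with 0.835 ± 0.0384 (n = 2), and its helicase both disassembles the spliceosome after splicing and works in ribosome assembly. PRP8, the gene of the scaffold protein at the catalytic core, was at 0.324 ± 0.00224 and NAM8, of a U1 protein known for meiotic splicing, at 0.323 ± 0.00909. The difference between these neighbours was smaller than their spread. PRP21 (YJL203W), which encodes a subunit of the SF3a part of U2 snRNP, was the lowest with 0.0351 ± 0.000570, from 36 and 65 reads, 87.8 times below SNU13.

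Genes of one particle differed in level. Per length and on the deposited scale in WT with DMSO, the U1 snRNP genes ran from 0.0780 for LUC7 to 0.323 for NAM8, and the U2 snRNP genes from 0.0351 for PRP21 to 0.206 for RSE1, an SF3b subunit. Among the tri-snRNP genes PRP3 was lowest at 0.0539. The helicase genes ran from 0.0827 for PRP5 to 0.835 for PRP43, and the Prp19 complex from 0.0800 for CEF1 to 0.259 for PRP19, its ubiquitin ligase. The ratio of the highest to the lowest member was 87.8 in untreated and 39.2 in CHX-treated WT, and 39.8 in untreated and 23.6 in CHX-treated upf1. SNU13, PRP43 and PRP21 kept the first, second and last places in all 4 groups. PRP5 stood at place 39 of 46 in both WT groups, at place 12 in upf1 with DMSO and at place 24 in upf1 with CHX.

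**Figure D1:**
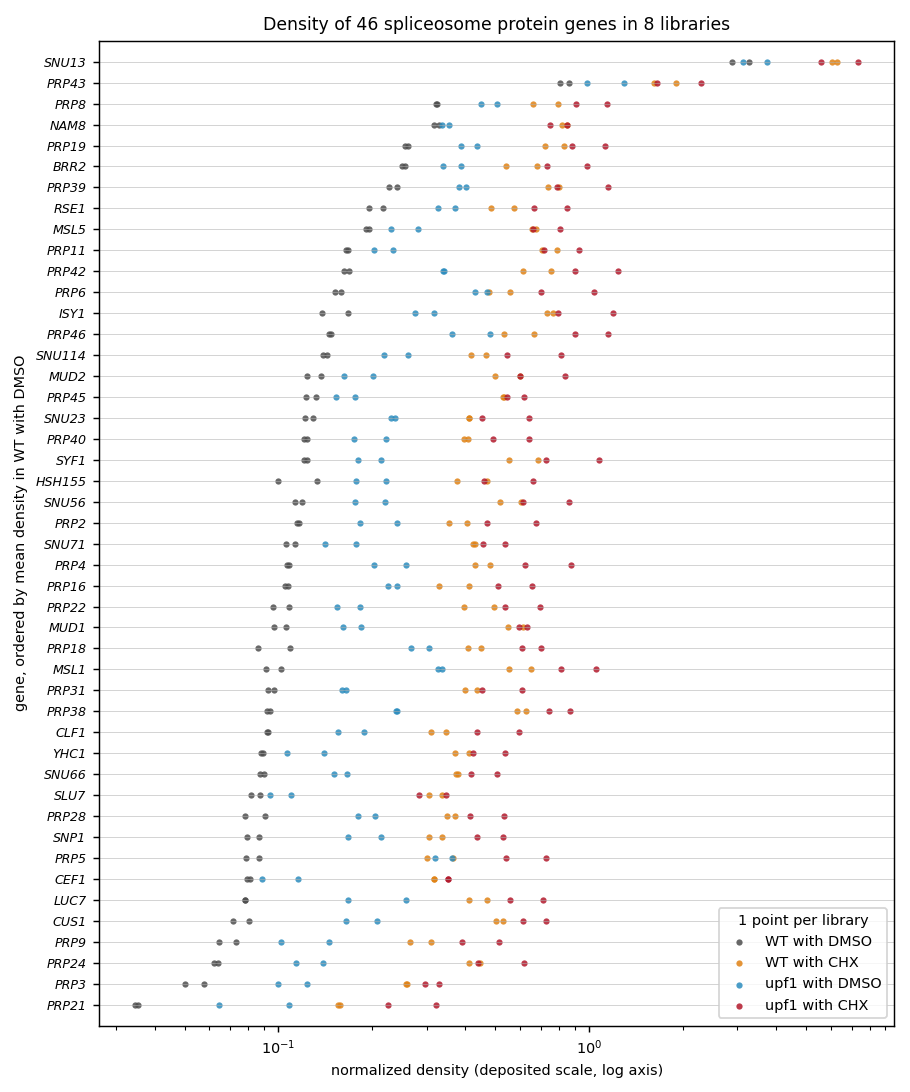
Normalized density (deposited scale, log axis) of the 46 spliceosome protein genes, 1 point per library and 2 libraries per group, ordered by the mean in WT with DMSO. SNU13 and PRP43 stand above the other genes in every group, PRP21 is lowest, and the CHX libraries lie to the right of the DMSO libraries of the same genotype for every gene.

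The first comparison asks what a block of translation elongation did to these mRNAs in WT cells. On the deposited scale all 46 genes rose with CHX, by 1.00 (SNU13) to 2.68 (CUS1) on the log2 scale, with a median of 1.98. The background was nearly as full, since 97.7% of the tested protein-coding genes rose, with a median of 1.55. On the mRNA-rescaled scale 31 of the 46 rose and 4 fell, where 34.9% of protein-coding genes rose and 30.7% fell, and the 4 that fell were all above 0 on the deposited scale and in RPM. The median member was at 0.48 and the median protein-coding gene at 0.07. The members stood 0.43 above the median protein-coding gene on the deposited scale and 0.42 above it on the rescaled one. In RPM 43 rose and 0 fell, against 69.7% and 7.68% of protein-coding genes. No member fell on the deposited scale by limma or by voom, and 0 had an unadjusted p under 0.05 in that direction there or in RPM.

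**Figure D2:**
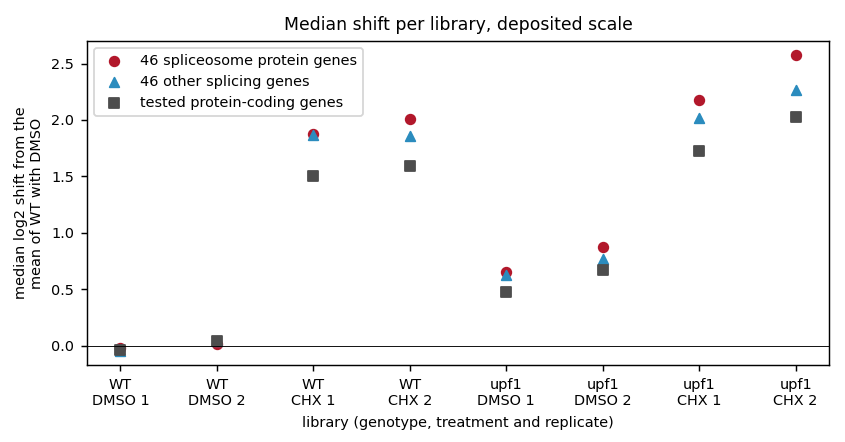
Median log2 shift from the mean of WT with DMSO on the deposited scale, 1 point per library for the 46 spliceosome protein genes, the 46 other splicing genes and the tested protein-coding genes. In all 6 libraries outside WT with DMSO the spliceosome protein genes and the other splicing genes both lie above the protein-coding genes. In the first WT library with CHX the medians are 1.88, 1.87 and 1.50 in that order. In the second upf1 library with CHX they are 2.57, 2.26 and 2.02.

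By role, on the rescaled scale, CHX in WT raised 7 of 10 U1 snRNP genes, 5 of 7 U2 snRNP genes, 5 of 10 tri-snRNP genes, 3 of 7 helicase genes and 6 of 7 Prp19 complex genes, along with both branch site genes, both second step genes and PRP24. Of protein-coding genes 34.9% rose on this scale, and the helicase share (42.9%) was near that. CUS1, the gene of an SF3b subunit that holds U2 to the branch site, had rescaled densities of 0.169 and 0.144 in untreated WT, and CHX brought them to 0.367 and 0.362. Both CHX libraries were far above both DMSO libraries, a rescaled change of 1.20 (SE 0.10, adjusted p = 7.68e-05). PRP24, whose product anneals U4 to U6 snRNA, rose from 0.131 and 0.129 to 0.301 and 0.304, a rescaled change of 1.19 (SE 0.10, adjusted p = 7.25e-05). PRP38, needed to activate the assembled spliceosome, went from 0.193 and 0.189 to 0.459 and 0.400, a rescaled change of 1.14 (SE 0.10, adjusted p = 1.05e-04). These 3 changes passed the threshold whichever single library was left out. PRP38 overlaps SMD1 on the opposite strand, and whether the counting used strand is not given in the sources used here, so its reads and those of SMD1 may be mixed. SMD1 was at 0.14 rescaled in the same comparison (adjusted p = 0.108).

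MSL1, the gene of a U2 snRNA-binding protein, also rose with CHX in WT, by 1.08 rescaled (SE 0.09, adjusted p = 8.18e-05). The highest U1 snRNP genes were MUD1 at 0.96 (SE 0.12, adjusted p = 3.90e-04) and LUC7, whose product helps choose the 5′ splice site, at 0.93 (SE 0.13, adjusted p = 6.61e-04). SYF1 and ISY1 led the Prp19 complex with 0.78 and 0.75, and PRP22, the helicase that releases the mRNA, led the helicases with 0.57. These genes were above their DMSO values in both CHX libraries.

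SNU13, PRP43, PRP8 and BRR2 were the members that fell on the rescaled scale, while all 4 were above 0 on the deposited one. In upf1 with DMSO, a group outside the comparison, they held places 1, 2, 3 and 8 of 46 by level. SNU13 went from 6.06 and 6.58 in WT with DMSO to 4.61 and 4.13 in WT with CHX in rescaled density, and the groups did not overlap. Its rescaled change was -0.53 (SE 0.08, adjusted p = 7.57e-04), while it rose by 1.00 on the deposited scale and was at 0.03 in RPM. PRP43 had rescaled densities of 1.70 and 1.73 with DMSO and 1.19 and 1.30 with CHX, with no overlap. It was at -0.46 rescaled (SE 0.09, adjusted p = 0.00304), 1.07 deposited and 0.10 in RPM. PRP8 went from 0.678 and 0.652 to 0.485 and 0.541 in rescaled density, also with no overlap, and was at -0.37 rescaled (SE 0.08, adjusted p = 0.00354), 1.15 deposited and 0.18 in RPM. BRR2, the helicase that unwinds U4 from U6, was at -0.27 rescaled (adjusted p = 0.0332), 1.25 deposited and 0.28 in RPM, and its rescaled call was lost without either WT library with DMSO or without the first WT library with CHX, with changes of -0.38 to -0.16. PRP19, NAM8 and RSE1 were at 0.04, -0.17 and -0.18 rescaled and did not pass the threshold.

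Across the 46 genes, the rescaled CHX change in WT had a Spearman correlation of -0.507 with the level in upf1 with DMSO, a group outside the comparison, and -0.593 across 5897 protein-coding genes. With coding length it was -0.511 across the 46 and -0.0509 across all. The length correlation across the 46 did not keep this size or sign in the other comparisons. It was -0.273 for CHX in upf1, -0.158 for upf1 against WT in DMSO and 0.25 for upf1 against WT in CHX. Genes share libraries and depth, so these are descriptions and not tests.

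**Figure D3:**
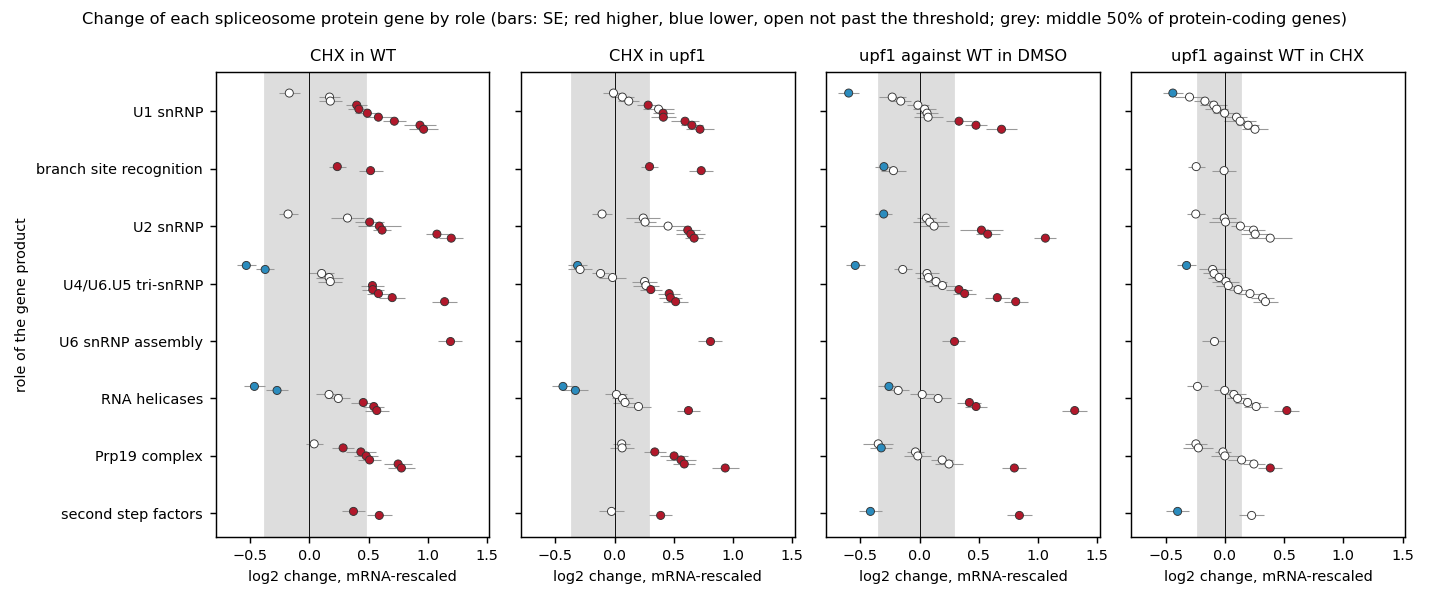
Change on the mRNA-rescaled log2 scale of each of the 46 genes, grouped by the role of its product, in 4 comparisons. Bars are SE from the model, red points passed the threshold upward, blue ones downward and open ones did not, and the grey band is the middle 50% of protein-coding genes. With CHX most points lie to the right of 0 in every role but the second step factors in upf1 (PRP18 at -0.03, SLU7 at 0.39), the blue points in WT are SNU13, PRP8, PRP43 and BRR2, and in upf1 against WT in DMSO they spread from -0.60 for NAM8 to 1.31 for PRP5.

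The same treatment in upf1 cells raised all 46 genes on the deposited scale, by 0.78 (PRP43) to 2.14 (SYF1) with a median of 1.50, where 95.5% of protein-coding genes rose with a median of 1.14. After rescaling, 23 rose and 3 fell, against 22.1% and 28.8% of protein-coding genes, and all 3 that fell rose on the deposited scale, where PRP43 was the only one below 0 in RPM. The median member was at 0.30 rescaled and the median protein-coding gene at -0.05. In RPM 42 rose and 0 fell, against 49.3% and 7.85%. No member fell on the deposited scale by limma or voom, and 0 did so at an unadjusted p under 0.05 there or in RPM, where 0.0509% of protein-coding genes fell on the deposited scale. The second upf1 library with CHX was the shallowest of the series, with 9.09 M reads. Without it 15 members rose on the rescaled scale, and without any 1 of the other libraries 16 to 22 did.

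SYF1, the gene of a scaffold protein of the Prp19 complex, had the highest rescaled change with CHX in upf1. Its rescaled densities were 0.246 and 0.253 with DMSO and 0.436 and 0.530 with CHX, a change of 0.93 (SE 0.12, adjusted p = 8.39e-04) with no overlap. PRP24 followed, from 0.155 and 0.164 to 0.265 and 0.303, at 0.80 (SE 0.10, adjusted p = 8.04e-04). MUD2, the partner of the branch site protein Msl5, went from 0.221 and 0.238 to 0.360 and 0.410, at 0.73 (SE 0.10, adjusted p = 0.00136). In both genes the CHX libraries lay above the DMSO libraries. YHC1, of the U1 protein that contacts the 5′ splice site, was at 0.72 (SE 0.11, adjusted p = 0.00229). CEF1, SYF1, ISY1, PRP45 and CLF1 of the Prp19 complex rose on the rescaled scale, and PRP19 and PRP46 were at 0.06 each and did not pass. The calls of SYF1 and PRP45 held whichever library was left out. CEF1 lost its call without the first upf1 library with DMSO or the first with CHX (0.42 to 0.71 with 1 library left out), and ISY1 (0.36 to 0.65) and CLF1 (0.26 to 0.42) lost theirs without the second upf1 library with CHX or either upf1 library with DMSO. The tri-snRNP genes that rose were PRP38, PRP4, PRP31 and SNU66, at 0.52, 0.47, 0.46 and 0.31. SNU66 lost its call without any 1 of the 4 upf1 libraries (0.27 to 0.34), and PRP4 without the second upf1 library with CHX (0.37).

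PRP43, SNU13 and PRP5 were the 3 members that fell with CHX in upf1 on the rescaled scale. PRP43 went from 1.34 and 1.53 to 0.997 and 1.12 in rescaled density, and SNU13 from 4.25 and 4.41 to 3.37 and 3.61. The groups did not overlap in either. PRP43 was at -0.44 rescaled (SE 0.09, adjusted p = 0.00761), 0.78 deposited and -0.06 in RPM. SNU13 was at -0.31 rescaled (SE 0.08, adjusted p = 0.0163), 0.90 deposited and 0.06 in RPM, and its rescaled call was lost without the second upf1 library with DMSO or the first with CHX (highest adjusted p = 0.0849). PRP5 was at -0.33 rescaled (SE 0.11, adjusted p = 0.0434), 0.87 deposited and 0.04 in RPM. The PRP5 call was lost without any 1 of 6 libraries, both of WT with CHX and all 4 of upf1, with changes of -0.40 to -0.26.

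The third comparison asks which of these mRNAs differ in untreated cells that lack Upf1. It shares the WT libraries with DMSO with the first comparison, so both use the same baseline. On the deposited scale 36 of the 46 genes were higher in upf1, where 66.7% of protein-coding genes were, and the changes ran from 0.09 (NAM8) to 1.97 (PRP5) with a median of 0.75 against 0.57. After rescaling, 16 were higher and 7 lower (2 without the first WT library with DMSO), against 23.3% and 31.4% of protein-coding genes, and of the 7 that were lower only NAM8, SNU13 and SLU7 were below 0 in RPM and none was below 0 on the deposited scale. In RPM 33 were higher and 0 lower, against 45.6% and 5.21%. No member was lower on the deposited scale by limma or voom, and 0 were so at an unadjusted p under 0.05, where 0.407% of protein-coding genes were, and in RPM 1 was. The median member was at 0.08 rescaled and the median protein-coding gene at -0.11.

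PRP5 stood at the top. It encodes the ATPase that prepares U2 snRNP for pairing with the branch site. Its rescaled densities were 0.182 and 0.158 in WT with DMSO and 0.433 and 0.425 in upf1 with DMSO, and the groups were far apart. The rescaled change was 1.31 (SE 0.11, adjusted p = 4.92e-05), from 246 and 414 reads in WT and 1577 and 1155 reads in the mutant. MSL1 came next, with rescaled densities of 0.192 and 0.205 in WT and 0.445 and 0.396 in upf1, a change of 1.06 (SE 0.09, adjusted p = 6.90e-05). PRP18, of a second step factor that helps dock the 3′ splice site, went from 0.181 and 0.219 to 0.363 and 0.359, a change of 0.84 (SE 0.10, adjusted p = 3.87e-04). These 3 calls held whichever library was left out.

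Within the roles, PRP6 led the tri-snRNP genes in upf1 with DMSO at 0.81 rescaled (SE 0.10, adjusted p = 4.48e-04), and PRP46 led the Prp19 complex at 0.80 (SE 0.10, adjusted p = 4.48e-04). PRP6 encodes a protein that bridges U5 to U4/U6. On the rescaled scale PRP46 was the only 1 of 7 Prp19 complex genes (14.3%) that was higher, where 23.3% of protein-coding genes were. On the deposited scale 5 of 7 (71.4%) were higher, against 66.7% of protein-coding genes. PRP45 was lower at -0.32 rescaled but at 0.36 on the deposited scale, and CEF1 at -0.35 rescaled did not pass. The rescaled call of PRP45 was lost without the first WT library with DMSO or either upf1 library with DMSO, with a highest adjusted p of 0.124. Among the U1 snRNP genes LUC7 (0.69), SNP1 (0.48), of the U1-70K protein, and PRP42 (0.33) were higher on the rescaled scale and NAM8 was lower (though at 0.09 on the deposited scale), and PRP42 was not called without either WT library with DMSO or without the first upf1 library with DMSO.

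NAM8 had rescaled densities of 0.667 and 0.661 in WT with DMSO and 0.456 and 0.417 in upf1 with DMSO, with no overlap. Its rescaled change of -0.60 (SE 0.09, adjusted p = 8.50e-04) compared with 0.09 on the deposited scale and -0.24 in RPM. SNU13 went from 6.06 and 6.58 to 4.25 and 4.41, a rescaled change of -0.54 (SE 0.08, adjusted p = 8.28e-04), with 0.16 deposited and -0.18 in RPM. SLU7, the other second step gene, went from 0.184 and 0.164 to 0.128 and 0.129 in rescaled density. It was at -0.42 rescaled (SE 0.10, adjusted p = 0.00859), 0.26 deposited and -0.06 in RPM, and was not called without the first WT library with DMSO (adjusted p = 0.0534). PRP18 and SLU7 thus changed in opposite directions on the rescaled scale, while both were above 0 on the deposited scale.

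Under CHX fewer members passed between the genotypes. On the deposited scale 10 of 46 were higher in upf1 with CHX than in WT with CHX, where 19.8% of protein-coding genes were, and the count depended on single libraries. It was 0 without the first WT library with CHX or the second upf1 library with CHX, 2 without the second WT library with CHX and 29 without the first upf1 library with CHX. The count was also higher with the replicate number fitted as a block, as given in the last section. The 2 upf1 libraries with CHX had median member shifts of 2.18 and 2.57. On the rescaled scale 2 were higher and 3 lower, against 7.60% and 11.4% of protein-coding genes. In RPM 14 were higher and 0 lower, against 19.2% and 2.98%. PRP5 was at 0.52 rescaled (SE 0.11, adjusted p = 0.0203), with rescaled densities of 0.221 and 0.250 in WT and 0.324 and 0.356 in upf1. PRP46, with 0.392 and 0.456 in WT and 0.542 and 0.564 in upf1, was at 0.38 (SE 0.10, adjusted p = 0.0426). Neither overlapped between the genotypes. The rescaled densities of NAM8 were 0.624 and 0.557 in WT and 0.450 and 0.418 in upf1, those of SLU7 0.223 and 0.230 against 0.170 and 0.171, and those of SNU13 4.61 and 4.13 against 3.37 and 3.61. NAM8 was at -0.44 (SE 0.09, adjusted p = 0.0182), SLU7 at -0.40 (SE 0.10, adjusted p = 0.0343) and SNU13 at -0.32 (SE 0.08, adjusted p = 0.0331) on the rescaled scale, with -0.06, -0.03 and 0.06 on the deposited scale, none of them called there. PRP5 (0.44 to 0.61) and NAM8 (-0.52 to -0.36) lost the rescaled call without the first WT library with CHX or the second upf1 library with CHX. SLU7 and SNU13 lost it without any 1 of the 4 CHX libraries, and PRP46 without any 1 of 6, those of WT and of upf1 with CHX, where its change was 0.28 to 0.49. No member was lower on the deposited scale by limma or voom, and 0 were so at an unadjusted p under 0.05, where 0.339% of protein-coding genes were, and in RPM 1 was.

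The last comparison asks whether CHX changed these mRNAs by a different amount in the mutant, by the test of the difference itself (the CHX change in upf1 minus that in WT). On the deposited scale 7 members had a lower CHX change in upf1 and none a higher one, where 15.0% and 0.119% of protein-coding genes did. After rescaling, 6 had a lower one and none a higher one, against 13.5% and 4.15%, so the share of members was near that of all genes. In RPM 12 had a lower one, against 21.0%, and 0 a higher one, against 0.594%. At an unadjusted p under 0.05, 0 members had a higher change on the deposited scale or in RPM and 1 on the rescaled scale, and voom called 0 on both. The 6 were PRP5, MSL1, PRP38, PRP18, CUS1 and PRP28, and MUD1 was the seventh on the deposited scale, at -0.67 (adjusted p = 0.0449).

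MSL1 had the largest rescaled difference of the 46, -0.82 (SE 0.13, adjusted p = 0.00430). Its rescaled densities rose from 0.192 and 0.205 to 0.406 and 0.444 with CHX in WT, and were 0.445 and 0.396 without CHX and 0.489 and 0.518 with CHX in upf1. The untreated mutant and the treated WT overlapped, and WT with DMSO stood apart below the 3 other groups. The feature counted for MSL1 spans 921 bases, against 336 of coding sequence.

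PRP5 had a rescaled difference of -0.79 (SE 0.15, adjusted p = 0.00911). With CHX its rescaled density rose in WT from 0.182 and 0.158 to 0.221 and 0.250, a change of 0.45 (adjusted p = 0.00699), and went in upf1 from 0.433 and 0.425 to 0.324 and 0.356, a change of -0.33 on this scale (0.87 on the deposited scale, 0.04 in RPM). All 4 mutant libraries were above all 4 WT libraries. The differences of MSL1 and PRP5 passed the threshold whichever library was left out, with highest adjusted p of 0.0205 and 0.0349.

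The other differences were less firm. PRP38 was at -0.63 rescaled (SE 0.15, adjusted p = 0.0201), with densities of 0.328 and 0.282 in upf1 with DMSO between those of WT with DMSO and of both CHX groups. SMD1 on its opposite strand was at -0.43 (adjusted p = 0.0183). PRP18 was at -0.62 (SE 0.15, adjusted p = 0.0204), and its rescaled density was 0.298 and 0.307 in CHX-treated WT. In upf1 it was 0.363 and 0.359 with DMSO and 0.365 and 0.345 with CHX. CUS1 was at -0.58 (SE 0.14, adjusted p = 0.0236), with 0.225 and 0.245 in untreated upf1 and 0.369 and 0.357 in CHX-treated upf1, beside 0.367 and 0.362 in CHX-treated WT. PRP28, the helicase that removes U1 from the 5′ splice site, was at -0.48 (SE 0.13, adjusted p = 0.0311), with 0.165 and 0.182 in WT with DMSO and 0.240 to 0.261 in the 6 other libraries.

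PRP38 lost its call for the difference without any 1 of 4 libraries, the second WT with DMSO, the first WT with CHX, the first upf1 with DMSO and the second upf1 with CHX, with differences of -0.73 to -0.52. PRP18 lost it without any 1 of 5 (either WT with CHX, either upf1 with DMSO, the second upf1 with CHX), with -0.75 to -0.48. CUS1 lost it without any 1 of 6 (all but the first of both DMSO groups), with -0.69 to -0.47, and PRP28 without any 1 of 7 (all but the second WT with DMSO), with -0.55 to -0.41. All 6 kept a negative difference on every scale tried. The feature counted for PRP28 spans 3481 bases, against 1767 of coding sequence, and reads outside the coding part enter its value.

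**Figure D4:**
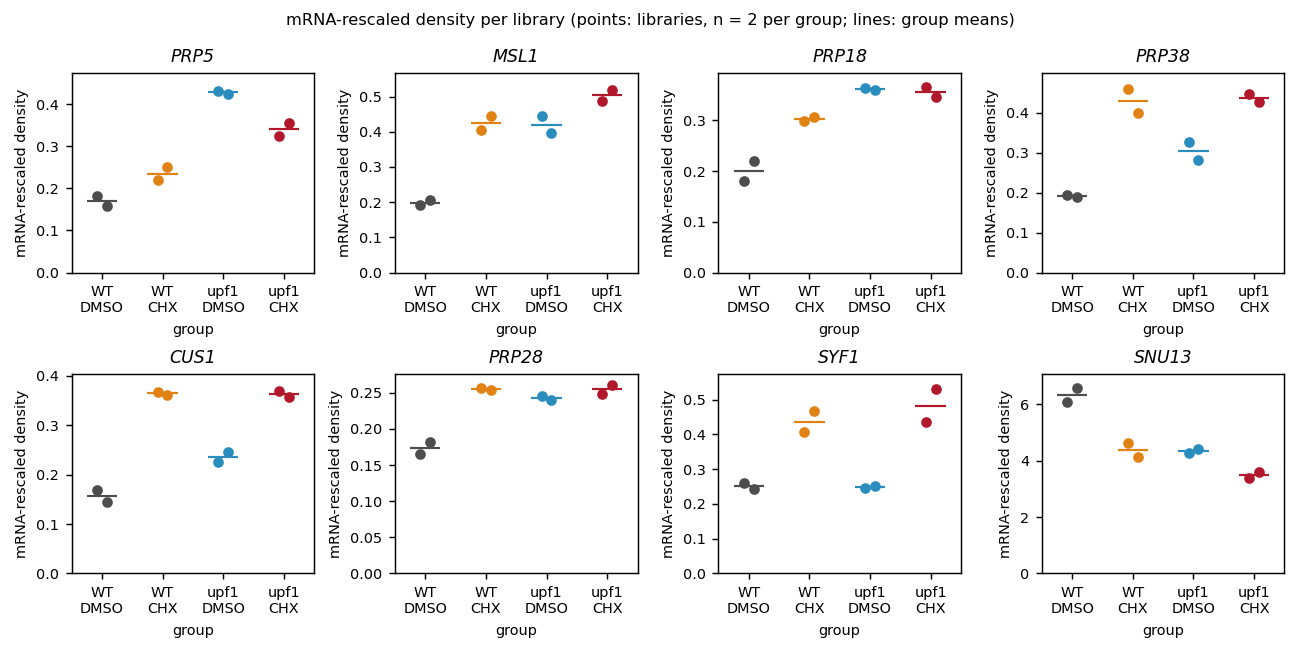
mRNA-rescaled density of 8 genes in each library (points, n = 2 per group, with lines at the group means). PRP5, MSL1, PRP18, PRP38, CUS1 and PRP28 are the 6 members whose rescaled CHX change differed between the genotypes, SYF1 rose with CHX in both genotypes, and SNU13 is highest in WT with DMSO on this scale, which is not so on the deposited one.

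MUD1, the member with the intron shown above, had rescaled densities of 0.222 and 0.194 in untreated WT and of 0.450 and 0.375 in CHX-treated WT. In upf1 it was at 0.220 and 0.217 with DMSO and at 0.357 and 0.310 with CHX. It rose with CHX in both genotypes, by 0.96 in WT and 0.59 in upf1 (SE 0.12, adjusted p = 0.00704), and without CHX the genotypes differed by 0.07 (SE 0.12, adjusted p = 0.656), which did not pass. On the deposited scale it was higher in upf1 with DMSO by 0.74 (adjusted p = 0.00175), where the median protein-coding gene moved by 0.57. The deposited densities cover the whole feature, so spliced and unspliced RNA of MUD1 were not separated.

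The 5 other splicing genes with introns did not move alike. SMD2 rose with CHX in both genotypes on the rescaled scale, by 0.42 in WT (adjusted p = 0.0369) and 0.47 in upf1 (adjusted p = 0.0367). LSM7 was at -0.35 (adjusted p = 0.0101) and -0.45 (adjusted p = 0.00577) on that scale with CHX in WT and in upf1, but rose by 1.18 and 0.76 on the deposited scale. LSM2, another protein of the ring on U6, was at -0.25 in each on the rescaled scale (adjusted p = 0.0276 and 0.0468), but rose by 1.28 and 0.96 on the deposited scale. YSF3, a small SF3b subunit, was higher in upf1 with DMSO by 0.48 rescaled (adjusted p = 0.00166). STO1, of the large cap-binding subunit, passed in none of the 5 rescaled comparisons.

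The other 46 splicing genes were counted in the same way, to be read against the shares of protein-coding genes given for each comparison above. With libraries rescaled, 23 rose and 6 fell with CHX in WT, 11 rose and 9 fell with CHX in upf1, 16 were higher and 11 lower in upf1 with DMSO, and 6 were higher and 5 lower in upf1 with CHX, while on the deposited scale 46, 45, 34 and 11 were higher and none lower (limma, 0 at an unadjusted p under 0.05). Their rescaled medians were 0.31, -0.06, 0.02 and -0.03, against 0.48, 0.30, 0.08 and 0.01 for the members. The difference of the CHX effects was lower for 13 and higher for 2 on the rescaled scale (28.3% and 4.35%, against 13.5% and 4.15% of protein-coding genes), and lower for 14 and higher for 0 on the deposited scale (30.4% and 0, against 15.0% and 0.119%; 0 higher at an unadjusted p under 0.05). AAR2, a chaperone of the U5 snRNP, and HSH49, an SF3b subunit, were highest in upf1 with DMSO, at 1.63 (adjusted p = 2.25e-05) and 1.45 (adjusted p = 3.94e-05) rescaled, above PRP5. HSH49 went from 0.187 and 0.231 in WT with DMSO to 0.575 and 0.582 in upf1 with DMSO, and AAR2 from 0.128 and 0.132 to 0.411 and 0.415.

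SUB2, an RNA helicase of early spliceosome assembly and mRNA export, was lowest with CHX in both genotypes on the rescaled scale, from 10.99 and 11.24 to 5.46 and 5.57 in WT, a change of -1.01 (adjusted p = 3.96e-05), while it was at 0.53 in WT and 0.32 in upf1 on the deposited scale. LSM5, of the ring on U6, was lowest in upf1 with DMSO at -0.93 rescaled and -0.23 deposited. SYF2 was highest with CHX in WT at 0.95 and SNT309 with CHX in upf1 at 0.90, and both belong to the Prp19 complex or its partners.

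The snRNAs that these proteins bind are not polyadenylated in their mature form and were measured in the same rRNA-depleted libraries. On the deposited scale U1 (snR19) was at 56.0 to 66.5 over the 8 libraries and U5 in its long form (snR7-L) at 61.1 to 71.6, and neither these nor U4 (snR14) passed in any comparison on that scale. U2 (LSR1) was higher in upf1 with DMSO by 0.43 on the deposited scale (adjusted p = 0.00184), from 111 and 118 to 154 and 156, but was at -0.27 on the rescaled one (adjusted p = 0.130). U6 (snR6) rose with CHX on the deposited scale, by 0.56 in WT (adjusted p = 0.0349) and 0.69 in upf1 (adjusted p = 0.0145), but was at -0.98 and -0.53 on the rescaled one. Its deposited densities went from 9.25 and 6.60 to 11.8 and 11.2 in WT. In upf1 they went from 7.78 and 5.07 to 12.1 and 8.48. Replicates of U6 thus lay far apart in every group but WT with CHX. On the rescaled scale all 5 were below 0 with CHX in WT, from -1.58 for U5 to -0.98 for U6, and the deposited scale itself is level in another class of small RNAs.

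Upstream ATG triplets, which can open a reading frame before the main one, were counted in the 100 bases before each annotated start codon, on the strand of the gene. At least 1 ATG was found for 24 of the 46 members (52.2%), 37 of the 46 other splicing genes (80.4%) and 3098 of 5953 protein-coding genes (52.0%). Of the 6 genes with a rescaled difference between genotypes PRP18 had 3 and the other 5 had none. CEF1 had 4, and PRP16, PRP22, PRP45 and PRP46 had 3 each, the nearest of PRP46 lying 16 bases before the start codon. In upf1 against WT in DMSO, CEF1, PRP45 and PRP22 were at 0.0036, 0.034 and 0.38 in RPM. PRP16, PRP46 and PRP18 were at 0.78, 1.16 and 1.20 there. Whether an upstream ATG relates to these changes was not tested. How much of each window is transcribed was not known, so a match is a description of the letters only.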

How the data were processed

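Total RNA of the 8 libraries received an ERCC external RNA standard, was depleted of ribosomal RNA and was made into strand-specific libraries, per the labels' protocols. Trim Galore, HISAT2 2.2.0, featureCounts 2.0.0, DESeq2 and build R64 are named in the submitters' processing notes, without order or role. The deposited signal is a normalised read density per feature, which the authors made from read counts. The values of each library are whole multiples of 1 library step divided by feature length, and the library steps followed 76 snoRNAs within 0.402%. The sources used here do not say whether counting used the strand or how the normalisation was set.

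Read numbers were recovered by dividing out this step. Densities were tested with limma 3.58.1 in R 4.3.3 (empirical Bayes with a mean-variance trend) on log2(density + 0.00548828), where the pseudocount is percentile 5 of the values above 0. Fold changes of low genes are understated on this scale. The filter kept 11700 features whose mean density reached the pseudocount, 5897 of them protein-coding, and dropped 293. All 8 libraries entered 1 fit with 4 residual degrees of freedom, and p-values were adjusted by the Benjamini-Hochberg method over all features at a threshold of 0.05. A second fit used libraries rescaled by median-of-ratios factors from 5817 protein-coding genes, and another the reads of a gene per total reads in protein-coding genes (RPM). The p-values measure the spread between these libraries.

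The 46 members, the other splicing genes and the tests were chosen with earlier results of these data known. Values in every library were given for members with an intron, for the 3 highest and 3 lowest rescaled changes past the threshold in each comparison, and for members past it in the difference of the CHX effects. Genes picked for such changes tend to have groups that do not overlap, so a lack of overlap only describes their values. It adds no support to the calls, and its share among all genes was not counted. Within a role the highest or lowest change could be named, and this was done for some roles and comparisons only. Of the other splicing genes, the 2 highest and 2 lowest rescaled changes and those with an intron could be named. SMD1 was named for its overlap with PRP38, after its values were seen. The alternatives were other scales, pseudocounts, filters, sets of samples, fits without the trend or with a block, each library left out, and voom on recovered reads, which was chosen after seeing the data.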

Additional observations from a re-analysis of the deposited data

Results flagged for a closer look

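In 6 members the response to CHX differed between the genotypes on the mRNA-rescaled scale, by limma's test of the difference of the CHX effects itself (upf1 minus WT). They are 6 of 46, where 13.5% of protein-coding genes had a lower CHX change in upf1 on this scale, so their share is near that of all genes. The CHX change was lower in upf1 in all 6, and PRP5 rose in WT and fell in upf1 on the rescaled scale while it rose in both on the deposited one. That rescaled fall was lost when single libraries were left out, and PRP5 was at 0.04 in RPM with CHX in upf1. Of the 6 differences, only those of MSL1 and PRP5 passed whichever library was left out, as given above. The difference was -0.82 on the log2 scale for MSL1, the U2B″ counterpart of U2 snRNP, and -0.58 for the U2 protein gene CUS1. For the tri-snRNP gene PRP38 it was -0.63. It was -0.79 for PRP5 and -0.48 for PRP28, which both encode RNA helicases, and -0.62 for the second step factor gene PRP18.

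The same test passed on the deposited scale for MSL1 (-1.11), CUS1 (-0.86), PRP38 (-0.91), PRP5 (-1.06), PRP28 (-0.77) and PRP18 (-0.90). There 15.0% of protein-coding genes had a lower change in upf1. On that scale the test also passed for the intron-containing MUD1, with a difference of -0.67. MUD1 did not pass the same limma test on the rescaled scale or in RPM (-0.55, adjusted p = 0.0598).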

How the results depend on the processing

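Across 3864 single-gene values of the members under the alternatives, 3358 kept their direction and their side of the threshold, 168 lost significance and 132 gained it. Another 49, all under another scaling of the libraries, changed sign and were called in at least 1 of the fits, and 157 (78 under another scaling) changed sign but were called in neither. By scaling, rescaled against deposited counts of members were 4 against 0 lower for CHX in WT, 23 against 46 higher and 3 against 0 lower for CHX in upf1, 16 against 36 higher and 7 against 0 lower for upf1 against WT in DMSO, and 2 against 10 higher and 3 against 0 lower for upf1 against WT in CHX. In RPM they were 0 lower for CHX in WT, 42 higher and 0 lower for CHX in upf1, 33 higher and 0 lower for upf1 in DMSO, 14 higher and 0 lower for upf1 in CHX, and 12 lower for the difference of the CHX effects. For upf1 against WT in CHX on the deposited scale, 2 were higher without the trend and 21 with voom. On the rescaled scale, 1 was higher and 1 lower with only the groups compared, 1 was higher without the trend, and 5 were higher and 5 lower with voom. For CHX in upf1 without the trend, 1 rescaled member was lower. In the difference on the deposited scale, 0 were lower with a pseudocount 10 times larger and 12 with voom. That pseudocount also took the members' median above protein-coding genes for CHX in WT from 0.43 to 0.27. The difference of replicate 2 from replicate 1 correlated between groups across protein-coding genes by -0.058 to 0.17. Such a correlation cannot show a shift shared by all genes of a library, so it does not decide whether the numbers mark pairs. On the deposited scale the median protein-coding shift was higher in replicate 2 than in replicate 1 of every group, with 2.02 against 1.73 in upf1 with CHX. With the replicate number as a block, 25 members were higher for upf1 against WT in CHX and 13 were lower in the difference on the deposited scale, and 4 single-gene rescaled calls changed.

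Leaving out 1 library at a time gave 46 members higher in either CHX comparison, 26 to 42 higher for upf1 in DMSO, 0 to 29 higher for upf1 in CHX and 2 to 17 lower in the difference on the deposited scale. On the rescaled scale it gave 27 to 31 higher and 3 to 4 lower for CHX in WT, and 15 to 22 higher and 1 to 3 lower for CHX in upf1. It gave 11 to 15 higher and 2 to 8 lower for upf1 in DMSO, 0 to 2 higher and 0 to 3 lower for upf1 in CHX, and 2 to 5 lower in the difference. A left-out library leaves its group with 1, which is assumed to vary like the other groups. The edgeR and DESeq2 alternatives were planned for deposited counts and were not run, since the deposited values are densities. The recovered reads were tested with voom instead, and edgeR and DESeq2 were not tried on them. What moved these counts was not tested.

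The values below are the sign changes of members called on at least 1 of the scales compared. Rescaled changes that turned positive on the deposited scale were, of these, for CHX in WT, NAM8 1.35, RSE1 1.33, PRP8 1.15, SNU13 1.00, PRP43 1.07 and BRR2 1.25. For CHX in upf1 they were NAM8 1.20, RSE1 1.10, PRP6 0.92, PRP8 1.09, SNU13 0.90, SNU23 1.18, PRP5 0.87, PRP43 0.78 and PRP18 1.18. For upf1 against WT in DMSO they were NAM8 0.094, PRP40 0.66, SNU71 0.52, MSL5 0.39, PRP11 0.38, PRP8 0.55, SNU13 0.16, PRP43 0.44, BRR2 0.51, PRP19 0.65, SYF1 0.66, PRP45 0.36 and SLU7 0.26, and in CHX SNU13 0.057. In RPM they were, for CHX in WT, NAM8 0.39, RSE1 0.37, PRP8 0.18, SNU13 0.029, PRP43 0.10 and BRR2 0.28. For CHX in upf1 they were NAM8 0.36, RSE1 0.26, PRP8 0.25, SNU13 0.062, SNU23 0.35, PRP5 0.039 and PRP18 0.34, and for upf1 in DMSO PRP40 0.34, MSL5 0.059, PRP11 0.056, PRP43 0.11, PRP19 0.33, SYF1 0.34 and PRP45 0.034. The scalings differ by 1 factor per library, so they shift the genes of a library together.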
